A study of Mus musculus with 9 samples.

Results

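Most of the genes described here carry glucose to lactate or are known to be switched on when oxygen is scarce. A list of 35 gene names defined the set, and 33 of the 35 were measured, each by 1 probe set. The whole experiment had 19572 probe sets with a gene name. Eno1 and Gpi1 were not analysed here. The cells were C1498, known as a mouse acute myeloid leukaemia line, and all of them had been infected with a lentivirus that also carried GFP and were isolated as GFP-positive cells 2 weeks later. The virus held short hairpin RNA sequence C against Zeb1 (shZeb1_C, replicates 10 to 12), sequence D (shZeb1_D, replicates 13 to 15) or a negative control construct (Scr, replicates 7 to 9), with 3 arrays in each group. The labels do not state that replicate arrays were infected or cultured apart. A p-value here therefore weighs a difference against array-to-array spread that may be technical only, and 3 arrays a group limit the precision. In such bulk RNA, fewer cells of a type and less RNA per cell cannot be told apart.

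Cells respond to low oxygen mainly through hypoxia-inducible factors (HIFs), pairs of an oxygen-regulated alpha protein and its partner Arnt that bind DNA at a short core sequence. With oxygen present, the prolyl hydroxylases encoded by Egln genes mark the alpha protein for destruction through Vhl. Known HIF targets include glucose transporters, most glycolytic enzymes, Pdk1, which keeps pyruvate out of mitochondria, and secreted factors such as Vegfa and Adm. Leukaemia cells are also known for high glycolysis where oxygen is plentiful.

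Values are log2 signals of the authors' RMA normalization, and a difference of 1 is a doubling. All 9 array medians lay between 6.97 and 7.16, and 29 of the 33 genes had a mean above 7.06, the median over all probe sets (below, the median level). Aldoc, Pfkfb4, Egln3 and Car9 did not. Of 16 myeloid markers, 5 were above that level (Ptprc, Itgb2, Csf2rb, Mpo and Fcgr3), and the defining Spi1, Cebpa, Itgam and Csf1r were below it. Of 12 T and NK cell markers, 7 were above it, among them Cd3e, Cd3g and Cd3d. The first principal component of deviations from the group means held 57.9% of their variance. On it Scr replicate 8, shZeb1_C replicate 12 and shZeb1_D replicates 14 and 15 had positive loadings (0.387, 0.518, 0.305 and 0.188). The other 5 arrays had negative ones. Arrays with positive loadings are called below those that stood apart, by sign alone. Centring within groups puts arrays of every group on both sides, and the extreme shZeb1_D array was replicate 13, at -0.494.

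Zeb1, the hairpins' target, was at 10.41, 10.01 and 10.34 in shZeb1_C, 9.56, 9.26 and 9.40 in shZeb1_D, and 10.52, 10.29 and 10.56 in Scr. Its log2 fold change was -0.20 ± 0.16 (SE) in shZeb1_C (limma adjusted p = 0.895) and -1.05 ± 0.16 in shZeb1_D (adjusted p = 0.0263). The arrays labelled shZeb1_C thus overlapped Scr in the gene they were meant to lower, and shZeb1_C is used below as a label only.

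To show the sequence in front of the genes the results turn on, the 250 bases before the start of 30 of the 33 genes were read from RefSeq promoter windows (build GRCm38.p6, 43 windows). They were searched on both strands for the HIF core in its forms ACGTG and GCGTG and for the ZEB-type E-box CAGGTG. The form ACGTG stood in 20 of the 30 genes and in 53.5% of their windows, against 16.6% of all 32851 windows. GCGTG stood in 48.8% of their windows against 28.2% of all, and CAGGTG in 11.6% against 17.2%. The genes' windows had a median GC content of 62.8%, against 52.4% over all windows, and the part of base composition in these shares was not tested.

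Adm and Ldhd are shown because they passed the test, Ldha because it is the classical HIF target beside Ldhd, and P4ha1 because its values split within both hairpin groups. Ndrg1 is named only. Capitals mark the searched letters on either strand, and each sequence runs toward the gene's start. The windows are chr7:110627407-110627656 on the plus strand for Adm, chr8:111630337-111630586 on the minus strand for Ldhd, chr7:46845554-46845803 on the plus strand for Ldha and chr10:59323046-59323295 on the plus strand for P4ha1.
Adm: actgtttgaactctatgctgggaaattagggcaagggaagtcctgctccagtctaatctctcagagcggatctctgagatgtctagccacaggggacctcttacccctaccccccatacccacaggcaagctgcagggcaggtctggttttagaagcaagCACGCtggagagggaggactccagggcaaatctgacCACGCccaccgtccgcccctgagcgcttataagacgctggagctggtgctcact
Ldhd: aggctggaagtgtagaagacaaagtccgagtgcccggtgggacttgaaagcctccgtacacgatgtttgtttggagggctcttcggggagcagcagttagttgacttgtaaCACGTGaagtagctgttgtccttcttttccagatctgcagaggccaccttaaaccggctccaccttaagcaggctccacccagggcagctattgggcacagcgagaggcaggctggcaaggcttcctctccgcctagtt
Ldha: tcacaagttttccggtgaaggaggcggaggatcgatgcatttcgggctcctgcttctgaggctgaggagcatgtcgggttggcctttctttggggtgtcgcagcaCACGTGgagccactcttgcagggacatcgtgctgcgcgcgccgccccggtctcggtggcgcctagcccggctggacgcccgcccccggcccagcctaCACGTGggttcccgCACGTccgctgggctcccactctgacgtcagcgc
P4ha1: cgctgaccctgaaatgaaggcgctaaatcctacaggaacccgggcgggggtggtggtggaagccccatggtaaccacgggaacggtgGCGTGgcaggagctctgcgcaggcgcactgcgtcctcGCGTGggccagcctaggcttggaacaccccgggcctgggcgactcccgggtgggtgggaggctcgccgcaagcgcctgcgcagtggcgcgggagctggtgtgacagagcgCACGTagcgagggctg
Adm held GCGTG at 2 places, both on the opposite strand. Ldhd held 1 CACGTG, which reads ACGTG on both strands, and Ldha held ACGTG 5 times when both strands were counted. P4ha1 held ACGTG at 1 place and GCGTG at 2. None of these 4 windows held CAGGTG. Ldha has a second window, chr7:46846832-46847081 on the plus strand, which held CAGGTG at 1 place, GCGTG at 1 and ACGTG at 0.

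Few of the 33 genes passed. In shZeb1_C against Scr, 1 of 33 passed a limma adjusted p of 0.05, with Adm higher and 0 lower, and 0.945% of all named probe sets passed (0.659% higher and 0.286% lower). In shZeb1_D against Scr, 1 of 33 passed, with Ldhd higher and 0 lower, against 0.843% of all (0.399% higher and 0.445% lower). At an unadjusted limma p under 0.05 the counts were 3 and 2, which were 9.09% and 6.06% of the genes, beside 8.77% and 13.6% of all probe sets. Between the hairpins, Adm and Ndrg1 passed, both lower in shZeb1_D, against 0.848% of all (0.307% higher and 0.542% lower), and 5 (15.2%) passed unadjusted, beside 11.7% of all. Counts of 1 or 2 among 33 give no ground for setting the list apart from that background.

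Most fold changes were below 0. In shZeb1_C 23 of 33 were negative, with a median of -0.40 where the median of all probe sets was 0.00. In shZeb1_D 26 were negative, with a median of -0.40 against 0.04. These medians depended strongly on 1 array in each group: without shZeb1_C replicate 12 the median was -0.11, and without shZeb1_D replicate 14 it was -0.02. From the Scr mean, the median gene differed by 0.11, -0.37 and -1.05 in shZeb1_C replicates 10, 11 and 12. In shZeb1_D replicates 13, 14 and 15 it differed by 0.10, -0.83 and -0.13. Leaving out Scr replicate 8, shZeb1_C replicate 12 and shZeb1_D replicates 14 and 15, the arrays that stood apart, left only replicate 13 in shZeb1_D. The medians were then -0.13 in shZeb1_C and 0.05 in shZeb1_D, and 18 of the 33 genes changed sign in shZeb1_D.

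**Figure D1:**
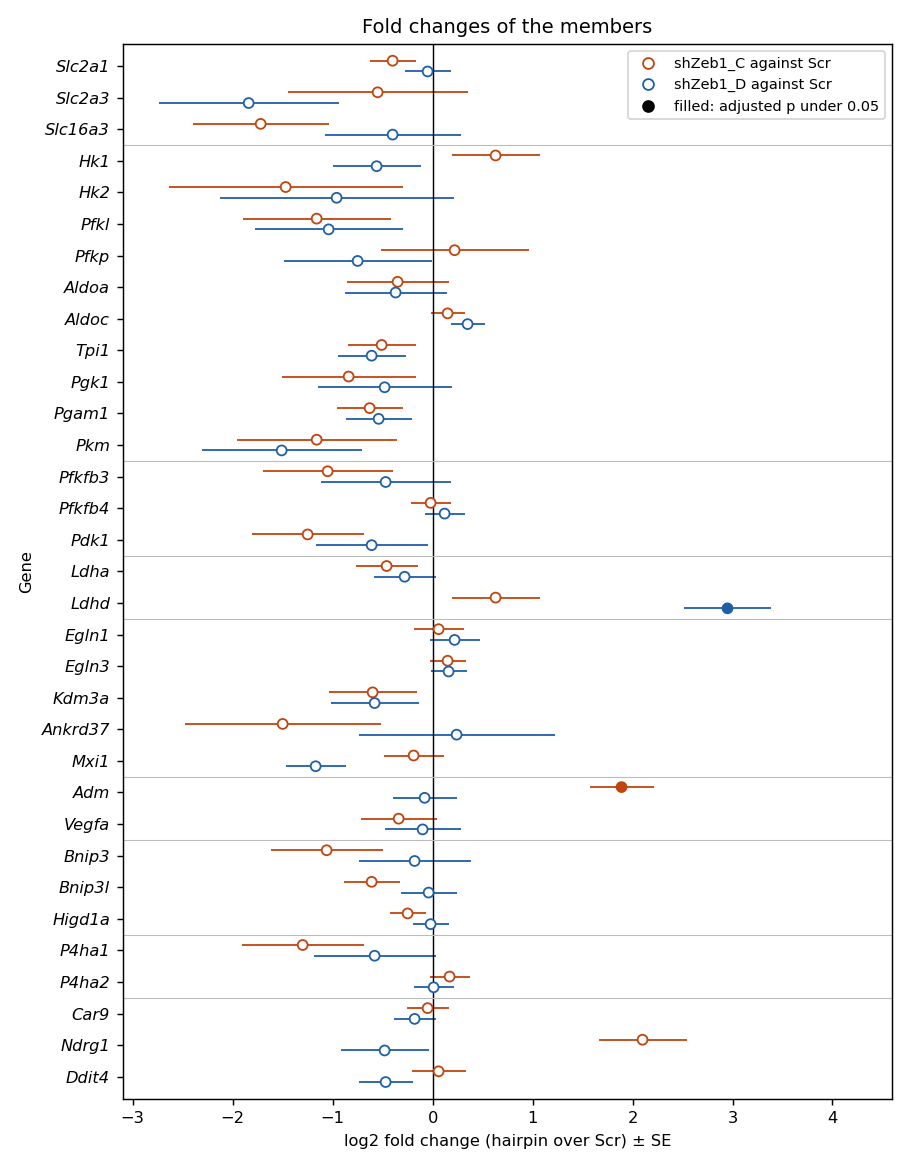
Log2 fold change over Scr (x axis) with its SE for each of the 33 genes, grouped by role, in shZeb1_C (orange) and shZeb1_D (blue); filled points passed a limma adjusted p of 0.05. Adm at 1.89 in shZeb1_C and Ldhd at 2.95 in shZeb1_D are the filled points, and Ndrg1 at 2.10 in shZeb1_C is open.

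Of the secreted factors, Adm, which encodes the vessel-dilating peptide adrenomedullin, rose in the arrays labelled shZeb1_C and Vegfa, the main driver of vessel growth, did not pass with either hairpin. Adm was at 12.22, 11.22 and 11.22 in shZeb1_C, 9.60, 9.21 and 9.92 in shZeb1_D, and 9.32, 9.54 and 10.12 in Scr. Every shZeb1_C array was above every array of the other groups, while shZeb1_D and Scr overlapped. The means were 11.55 ± 0.58 in shZeb1_C, 9.58 ± 0.36 in shZeb1_D and 9.66 ± 0.41 in Scr (SD, n = 3 each).

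The rise of Adm in shZeb1_C was 3.71-fold, a log2 fold change of 1.89 ± 0.32 (SE, 95% interval 1.16 to 2.63, limma adjusted p = 0.033). In shZeb1_D it was -0.08 ± 0.32 (adjusted p = 0.936). The difference itself, shZeb1_D minus shZeb1_C, was -1.98 ± 0.32 (limma adjusted p = 0.0283). The 20 nearest genes on both sides of Adm on its chromosome had a median log2 fold change of 0.07 in shZeb1_C.

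The call of Adm depended on single arrays, though its log2 fold change stayed between 1.56 and 2.12. Its limma adjusted p was 0.126, 0.121 and 0.0584 when Scr replicates 7, 8 and 9 were left out in turn. It was 0.0757 without shZeb1_C replicate 10, 0.0644 without replicate 11 and 0.057 without shZeb1_D replicate 15. With array medians subtracted the log2 fold change was 1.82 and the adjusted p 0.0518. The 12 T and NK cell markers had summed linear signals of 87730 to 99275 in shZeb1_C, 70041 to 72996 in shZeb1_D and 72712 to 95809 in Scr. Of these markers, 10 had positive and 2 negative fold changes in shZeb1_C, with a median of 0.26. Among them 2 passed in shZeb1_C, beside 0.945% of all probe sets. These were Nkg7 and Gzmb, granule proteins of cytotoxic cells, which rose by log2 fold changes of 5.93 and 4.33. The mean of Nkg7 lay below the median level, so the size of its fold change is less certain than its direction. Of the 16 myeloid markers, 12 had positive and 4 negative fold changes in shZeb1_C, with a median of 0.06. Their summed signals were 27129 to 39514 in shZeb1_C against 27494 to 42240 in Scr. Beside the same 0.945% of all, 1 of the 16 passed, the Fc receptor Fcgr3, which fell by 4.10. The part of these markers in the rise of Adm was not tested.

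Vegfa had log2 fold changes of -0.34 ± 0.38 in shZeb1_C (SE, 95% interval -1.20 to 0.52, limma adjusted p = 0.959) and -0.10 ± 0.38 in shZeb1_D (-0.96 to 0.76, adjusted p = 0.932).

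Ndrg1, a hypoxia and differentiation response gene, had the largest fold change of the 33 in shZeb1_C and missed the threshold there. It was at 9.28, 8.17 and 10.00 in shZeb1_C, 6.68, 6.14 and 6.89 in shZeb1_D, and 6.52, 7.32 and 7.30 in Scr. All shZeb1_C arrays were above all others, but they spread over more than 1 unit. The log2 fold change was 2.10 ± 0.44 in shZeb1_C (SE, limma adjusted p = 0.0708) and -0.48 ± 0.44 in shZeb1_D (adjusted p = 0.669).

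Between the hairpins Ndrg1 was lower in shZeb1_D by a difference of -2.58 ± 0.44 (SE, limma adjusted p = 0.0318). All 3 shZeb1_D arrays lay below the median level and the Scr mean of 7.05 was next to it, so Ndrg1 passed that level through shZeb1_C and the size of its fold change is less certain than its direction. The genes around Ndrg1 had a median log2 fold change of 0.09 in shZeb1_C and -0.05 between the hairpins. Both calls between the hairpins, of Adm and of Ndrg1, were lost without shZeb1_C replicate 10 (limma adjusted p = 0.0762 for Adm and 0.132 for Ndrg1) and without shZeb1_D replicate 13 (0.0604 and 0.0614), 14 (0.0974 and 0.105) or 15 (0.084 and 0.102). Adm also lost its call without shZeb1_C replicate 11 (adjusted p = 0.0595), and Ndrg1 without Scr replicate 9 (0.0602) or shZeb1_C replicate 12 (0.0523). Without the 4 arrays that stood apart, which leaves 1 shZeb1_D array, the differences were -2.12 for Adm and -2.04 for Ndrg1 and neither passed (limma adjusted p = 0.0851 and 0.108).

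The other genes of this role group, Car9 and Ddit4, did not pass in any comparison. Ddit4, which restrains mTORC1 under stress, was at 8.50, 8.31 and 7.64 in shZeb1_C, 7.69, 7.45 and 7.72 in shZeb1_D, and 8.34, 7.62 and 8.31 in Scr. Its groups overlapped, with limma adjusted p of 0.998 in shZeb1_C and 0.483 in shZeb1_D. Car9, a membrane carbonic anhydrase widely used as a hypoxia marker, lay below the median level, with log2 fold changes of -0.05 ± 0.21 in shZeb1_C and -0.18 ± 0.21 in shZeb1_D.

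**Figure D2:**
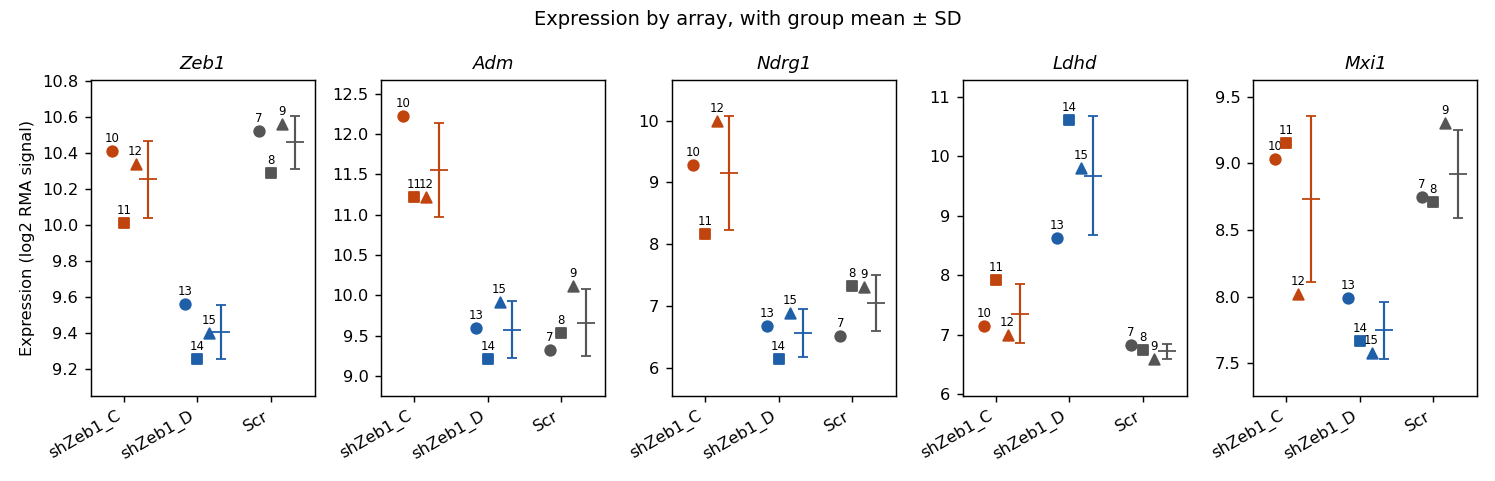
Log2 signal by array for Zeb1, the genes that passed a limma adjusted p of 0.05 in any comparison, and Mxi1; points are arrays with their replicate numbers, and bars are group means ± SD of 3 arrays, each panel on its own axis. Adm and Ndrg1 are high in the 3 shZeb1_C arrays, Ldhd is high and Mxi1 low in the 3 shZeb1_D arrays.

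Of the lactate dehydrogenases, Ldhd rose in shZeb1_D and Ldha did not pass with either hairpin. Ldha turns pyruvate into L-lactate in the cytosol, whereas Ldhd is a mitochondrial enzyme that oxidizes D-lactate to pyruvate. Ldhd is on the list but is not a step from glucose to L-lactate. Ldhd was at 7.15, 7.92 and 7.00 in shZeb1_C, 8.62, 10.61 and 9.80 in shZeb1_D, and 6.83, 6.75 and 6.59 in Scr. The shZeb1_D arrays were above all others, and the shZeb1_C arrays were also above the 3 Scr arrays, by less. All 3 Scr arrays lay below the median level, so the gene passed that level through the hairpin arrays and the size of its fold changes is less certain than their direction.

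Ldhd averaged 9.68 ± 1.00 in shZeb1_D, 7.36 ± 0.49 in shZeb1_C and 6.72 ± 0.12 in Scr (SD, n = 3 each). The rise in shZeb1_D was a log2 fold change of 2.95 ± 0.44 (SE, 95% interval 1.95 to 3.95, limma adjusted p = 0.023), while that in shZeb1_C was 0.63 ± 0.44 (adjusted p = 0.845). The difference between the hairpins, 2.32 ± 0.44 higher in shZeb1_D, missed the threshold (limma adjusted p = 0.0547). The genes around Ldhd had a median log2 fold change of -0.28 in shZeb1_D.

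Leaving out single arrays kept the log2 fold change of Ldhd in shZeb1_D between 2.49 and 3.48. The limma adjusted p was 0.0763, 0.0621 and 0.136 when Scr replicates 7, 8 and 9 were left out in turn, and 0.123 without shZeb1_D replicate 15. Without the 4 arrays that stood apart, it was 1.91 ± 0.32 with an adjusted p of 0.0428, where the lone shZeb1_D array is assumed to vary like the other groups. None of 6 further genes for D-lactate and methylglyoxal handling passed in limma in any comparison. Unadjusted, 2 (33.3%) were counted in shZeb1_C and 1 (16.7%) in shZeb1_D, beside 8.77% and 13.6% of all probe sets. The 16 myeloid markers had summed linear signals of 24870 to 43908 in shZeb1_D, around the 27494 to 42240 in Scr.

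Ldha had log2 fold changes of -0.46 ± 0.31 in shZeb1_C (SE, limma adjusted p = 0.841) and -0.28 ± 0.31 in shZeb1_D (adjusted p = 0.742). Ldhb, the isoform that favours lactate use and lies outside the list, had 0.03 and 0.12, with a signal below the median level in every array.

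Among oxygen sensors and feedback genes, 0 of 5 passed in limma with either hairpin, with 0 unadjusted in shZeb1_C and 1 in shZeb1_D. That one was Mxi1, a Myc antagonist. It was at 9.03, 9.15 and 8.02 in shZeb1_C, 7.99, 7.67 and 7.58 in shZeb1_D, and 8.75, 8.71 and 9.30 in Scr. All shZeb1_D arrays were below all arrays of the other groups, of which shZeb1_C replicate 12 came nearest.

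Mxi1 had a log2 fold change of -1.17 ± 0.30 in shZeb1_D (SE, limma adjusted p = 0.14) and -0.19 ± 0.30 in shZeb1_C (adjusted p = 0.993), with a median of -0.23 for its neighbouring genes in shZeb1_D. Egln1, the main oxygen-sensing prolyl hydroxylase, had 0.06 ± 0.25 and 0.22 ± 0.25 in shZeb1_C and shZeb1_D. Egln3, its hypoxia-induced relative, stayed below the median level in every array. Kdm3a, a histone demethylase induced by HIF, had -0.60 ± 0.44 and -0.58 ± 0.44. Ankrd37, an ankyrin-repeat gene, differed by 3.51 within shZeb1_C and by 2.58 within Scr, wider than its log2 fold changes of -1.50 ± 0.98 in shZeb1_C and 0.24 ± 0.98 in shZeb1_D.

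All 3 transporters had negative fold changes with both hairpins and none passed in limma, with 1 unadjusted in shZeb1_C (Slc16a3) and 0 in shZeb1_D. Slc16a3, which exports lactate, was at 9.33, 6.70 and 6.99 in shZeb1_C, 9.70, 7.92 and 9.38 in shZeb1_D, and 9.74, 9.16 and 9.29 in Scr. The shZeb1_C replicates 11 and 12 were more than 2 units below Scr, while replicate 10 lay inside the Scr range. Its log2 fold change was -1.72 ± 0.68 in shZeb1_C (SE, limma adjusted p = 0.466) and -0.40 ± 0.68 in shZeb1_D (0.835).

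Slc2a3, a high-affinity glucose transporter, was at 11.40, 10.31 and 7.66 in shZeb1_C, 9.61, 7.79 and 8.10 in shZeb1_D, and 10.04, 9.64 and 11.33 in Scr. The shZeb1_D arrays were all below Scr, replicate 13 barely so, and shZeb1_C overlapped Scr with 1 array far below. Its log2 fold change in shZeb1_D was -1.84 ± 0.90 (SE, limma adjusted p = 0.411). Slc2a1, the broadly used glucose transporter, had a signal above 16 in all 9 arrays, with log2 fold changes of -0.40 ± 0.23 in shZeb1_C and -0.05 ± 0.23 in shZeb1_D.

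The 10 glycolytic enzymes had a median log2 fold change of -0.57 in shZeb1_C, with 7 negative, and -0.58 in shZeb1_D, with 9 negative, and 0 passed in limma with either hairpin, adjusted or unadjusted. Hk1, a constitutive hexokinase, was at 8.51, 8.31 and 8.12 in shZeb1_C, 8.33, 6.85 and 6.19 in shZeb1_D, and 7.67, 7.73 and 7.64 in Scr. Its shZeb1_C arrays were all above Scr, whereas shZeb1_D had 1 array above Scr and 2 below. Its log2 fold change was 0.63 ± 0.44 in shZeb1_C and -0.56 ± 0.44 in shZeb1_D, and the difference between the hairpins was -1.19 ± 0.44 (SE, limma adjusted p = 0.328).

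Aldoc, an aldolase isoform best known from brain, was at 6.61, 6.63 and 6.85 in shZeb1_C, 6.59, 7.01 and 7.08 in shZeb1_D, and 6.67, 6.54 and 6.42 in Scr. All its values were near the median level and the groups overlapped (limma adjusted p = 0.959 in shZeb1_C and 0.410 in shZeb1_D).

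For the other 8 enzymes the range between the shZeb1_C arrays was wider than the log2 fold change. The same held in shZeb1_D except for Tpi1, triosephosphate isomerase (range 0.53, log2 fold change -0.61), and Pgam1, phosphoglycerate mutase (0.38 and -0.54). Values by array are given for Hk2, Pfkl, Pfkp and Pkm, of the controlled steps, which were chosen after their values were seen. Hk2, the inducible hexokinase, was at 12.09, 11.64 and 7.65 in shZeb1_C, 12.28, 9.25 and 11.39 in shZeb1_D, and 12.55, 10.83 and 12.41 in Scr. Relative to the Scr mean, shZeb1_C replicate 12 was at -4.28 and shZeb1_D replicate 14 at -2.68.

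Pfkl, the liver-type phosphofructokinase, was at 12.05, 11.09 and 9.34 in shZeb1_C, 12.24, 9.85 and 10.73 in shZeb1_D, and 12.32, 11.31 and 12.32 in Scr. Pkm, pyruvate kinase, was at 15.35, 15.03 and 12.75 in shZeb1_C, 15.55, 13.14 and 13.37 in shZeb1_D, and 15.93, 14.69 and 15.98 in Scr. In both, the lowest arrays of the groups were again shZeb1_C replicate 12, shZeb1_D replicate 14 and Scr replicate 8. Pfkp, the platelet-type phosphofructokinase, was at 14.53, 13.93 and 12.32 in shZeb1_C, 14.05, 11.39 and 12.41 in shZeb1_D, and 13.54, 12.52 and 14.05 in Scr. The same 3 arrays were lowest in their groups, but shZeb1_C replicate 10 was above every Scr array, and the log2 fold changes were 0.22 ± 0.74 in shZeb1_C and -0.75 ± 0.74 in shZeb1_D. The log2 fold changes of Pkm were -1.16 ± 0.80 in shZeb1_C and -1.51 ± 0.80 in shZeb1_D (SE, limma adjusted p = 0.843 and 0.449), and the genes around Pkm had medians of -0.42 and -0.44.

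Across the 10 enzymes, shZeb1_C replicate 12 was the lowest array of its group for 9 and replicate 10 the highest for 9. In shZeb1_D, replicate 14 was the lowest for 8 and replicate 13 the highest for 9. Over all probe sets, replicate 12 was the lowest for 36.1% and replicate 10 the highest for 24.9%. There replicate 14 was the lowest for 28.3% and replicate 13 the highest for 33.0%. Over probe sets above the median level these shares were, in the same order, 43.8%, 27.4%, 30.6% and 42.8%. The median range between the 3 arrays of a group was 1.91 in shZeb1_C and 2.24 in shZeb1_D, against 0.64 in Scr, and over all probe sets it was 0.42 in shZeb1_C, 0.50 in shZeb1_D and 0.42 in Scr.

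Against the Scr mean, the median enzyme differed by 0.20, -0.42 and -1.23 in shZeb1_C replicates 10, 11 and 12 and by 0.25, -1.69 and -0.64 in shZeb1_D replicates 13, 14 and 15. In shZeb1_C replicate 10, 5 of the 10 enzymes were above all 3 Scr arrays and 0 below, and in shZeb1_D replicate 13, 3 were above and 1 below. Over all probe sets, the same medians lay between -0.02 and 0.06.

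**Figure D3:**
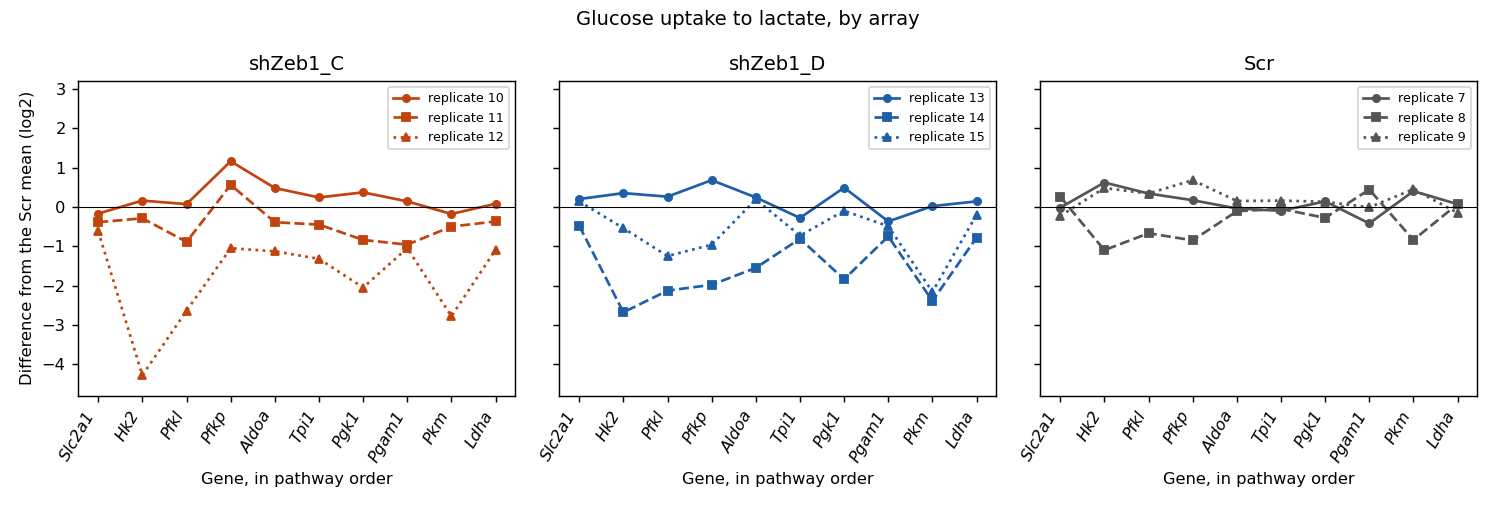
Difference from the Scr mean (y axis, log2) for 10 genes from glucose uptake to lactate, in pathway order, with 1 line per array in shZeb1_C, shZeb1_D and Scr panels. Replicate 12 of shZeb1_C and replicate 14 of shZeb1_D run below the other arrays of their groups, down to -4.28 and -2.68 at Hk2, while replicates 10 and 13 reach 1.16 and 0.68 at Pfkp. The enzymes Hk1 and Aldoc are not drawn. Replicate 14 was the lowest of its group for neither, and replicate 12 was the highest of its group for Aldoc.

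Of the regulators of flux, Pdk1 and Pfkfb3 had their lowest values in the same arrays of both hairpin groups. Pdk1, which blocks pyruvate dehydrogenase, was at 12.03, 11.37 and 10.12 in shZeb1_C, 12.77, 10.95 and 11.74 in shZeb1_D, and 12.86, 11.79 and 12.63 in Scr. The groups overlapped, shZeb1_C through replicate 10 alone, with log2 fold changes of -1.25 ± 0.56 in shZeb1_C and -0.61 ± 0.56 in shZeb1_D (SE, limma adjusted p = 0.582 and 0.675).

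Pfkfb3, which makes the activator of phosphofructokinase, had -1.05 ± 0.65 in shZeb1_C and -0.47 ± 0.65 in shZeb1_D, and its relative Pfkfb4 had -0.02 ± 0.20 and 0.12 ± 0.20 at signals near the median level. None of the 3 regulators passed in limma, and none had an unadjusted p under 0.05 with either hairpin.

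The 3 mitochondrial genes, Bnip3, Bnip3l and Higd1a, all had negative fold changes with both hairpins, and 0 passed in limma, adjusted or unadjusted. Bnip3l, a receptor for the removal of mitochondria, was at 12.42, 11.53 and 11.89 in shZeb1_C, 12.61, 12.15 and 12.79 in shZeb1_D, and 12.38, 12.97 and 12.33 in Scr. The shZeb1_C arrays 11 and 12 were below Scr and array 10 inside its range. Its log2 fold change was -0.61 ± 0.28 in shZeb1_C and -0.04 ± 0.28 in shZeb1_D (SE, limma adjusted p = 0.589 and 0.962). Bnip3, its close relative, had -1.06 ± 0.56 and -0.18 ± 0.56. Higd1a, a respiratory chain factor, had -0.25 ± 0.18 and -0.02 ± 0.18.

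P4ha1, a collagen prolyl hydroxylase subunit, was at 11.37, 9.37 and 9.76 in shZeb1_C, 11.59, 9.65 and 11.44 in shZeb1_D, and 11.24, 11.97 and 11.20 in Scr. Replicates 11, 12 and 14 were more than 1 unit below every Scr array, and the other hairpin arrays lay inside the Scr range. The log2 fold change was -1.30 ± 0.61 in shZeb1_C and -0.58 ± 0.61 in shZeb1_D (SE, limma adjusted p = 0.614 and 0.719). P4ha2, its paralog, had 0.17 ± 0.20 and 0.01 ± 0.20.

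The split within the hairpin groups was not limited to the enzymes. Of the 33 genes, 22 (66.7%) were below all 3 Scr arrays in shZeb1_C replicate 12 and 16 (48.5%) in replicate 11, but 1 (3.03%) in replicate 10. In shZeb1_D the counts were 24 (72.7%) in replicate 14 and 13 (39.4%) in replicate 15, but 5 (15.2%) in replicate 13. Over all probe sets the share below the Scr arrays was 25.1% to 26.7% in each of the 6 hairpin arrays. Over the probe sets above the median level, where 29 of the 33 genes lie, it was 24.9%, 27.0% and 33.8% in shZeb1_C replicates 10, 11 and 12 and 28.7%, 35.5% and 36.2% in shZeb1_D replicates 13, 14 and 15. The share above all 3 Scr arrays there was 22.3%, 24.3% and 27.7% in shZeb1_C and 25.9%, 28.9% and 27.6% in shZeb1_D. Replicates 12, 14 and 15 thus left the Scr range more often on both sides than the other arrays of their groups. The 39.4% of replicate 15 was near its 36.2% among these probe sets.

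The range between arrays was wider in shZeb1_C than in Scr for 27 of the 33 genes (81.8%) and wider in shZeb1_D for 23 (69.7%), beside 50.8% and 59.4% of all probe sets. Over probe sets above the median level these shares were 51.5% and 60.5%. The median range there was 0.56 in shZeb1_C, 0.66 in shZeb1_D and 0.55 in Scr, against 1.19, 0.92 and 0.59 for the 33 genes. The 13 mitosis genes, a marker of dividing cells, had median differences from Scr of -0.02, -0.25 and -0.73 in shZeb1_C replicates 10, 11 and 12 and -0.31, -0.65 and -0.66 in shZeb1_D replicates 13, 14 and 15. Of these 13, 10 had negative fold changes in shZeb1_C and 11 in shZeb1_D. Unadjusted, 3 (23.1%) and 5 (38.5%) were counted in limma, beside 8.77% and 13.6% of all probe sets. In each comparison with Scr 1 passed, beside 0.945% and 0.843% of all. It was the kinase Aurka, which fell by 1.32 in shZeb1_C and 1.75 in shZeb1_D on the log2 scale. The 15 integrated stress response genes had 0.24, 0.00 and -0.69 in shZeb1_C and -0.11, -0.64 and -0.01 in shZeb1_D. The part of either list in the split was not tested.

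**Figure D4:**
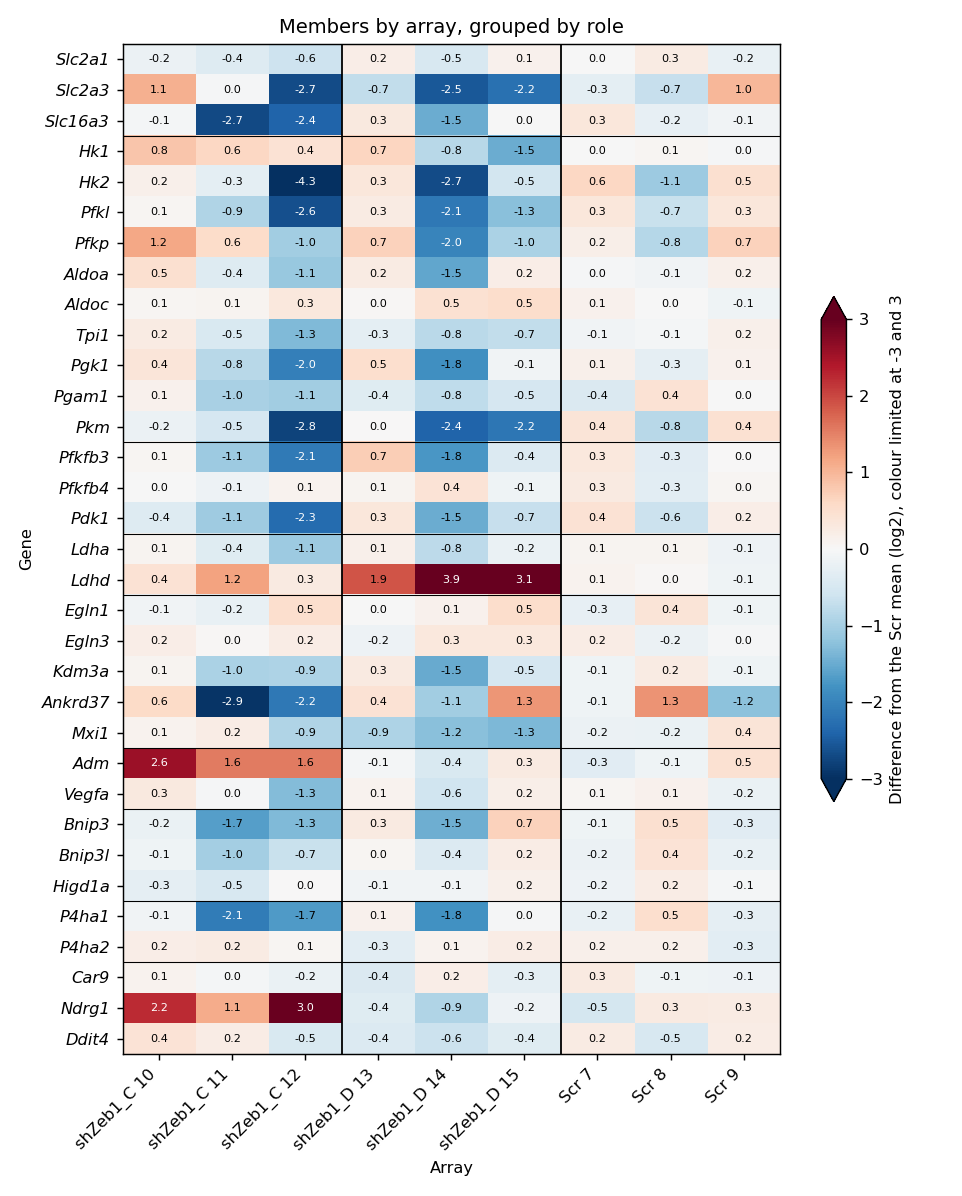
Difference from the Scr mean (log2, colour and printed value) for the 33 genes by role (rows) in each array (columns; shZeb1_C, then shZeb1_D, then Scr), with colour limited at -3 and 3. Columns 12 and 14 hold the most low values, with 22 and 24 genes below all 3 Scr arrays.

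In each comparison 4 of the 33 genes had groups that did not overlap, beside 14.2% of all probe sets in shZeb1_C against Scr, 17.0% in shZeb1_D against Scr and 15.2% between the hairpins. In shZeb1_C, 4 genes (Hk1, Ldhd, Adm and Ndrg1) were above Scr in every array and 0 below, beside 7.50% and 6.74% of all probe sets. In shZeb1_D, Ldhd was above and Slc2a3, Tpi1 and Mxi1 below, beside 10.3% and 6.65%. Between the hairpins, Ldhd was higher in shZeb1_D and Mxi1, Adm and Ndrg1 lower, beside 8.99% and 6.26%. The smallest two-sided exact permutation p for 3 arrays against 3 is 0.1, so no such test of a single gene could pass 0.05.

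Of 13 genes for HIF subunits and the machinery that controls them, 1 passed in shZeb1_C, beside 0.945% of all probe sets. In shZeb1_D 0 passed, beside 0.843%, and between the hairpins 1 passed, beside 0.848%. Hif1a, the alpha subunit, had log2 fold changes of -0.40 ± 0.30 in shZeb1_C and -0.39 ± 0.30 in shZeb1_D (SE, limma adjusted p = 0.875 and 0.604), and the genes around it had medians of -0.66 and -0.22. Epas1, the other main alpha subunit, lay below the median level with 0.06 and -0.24. Arnt had 0.31 and 0.42, Vhl -0.62 and -0.26, Hif1an, the asparagine hydroxylase, 0.03 and 0.15, and Egln2 -0.16 and -0.86 in shZeb1_C and shZeb1_D, and none of them passed.

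The call was Arnt2, a paralog of Arnt best known from the nervous system. It was at 11.38, 11.43 and 12.71 in shZeb1_C, 6.86, 7.37 and 6.64 in shZeb1_D, and 7.10, 7.28 and 7.49 in Scr, a log2 fold change of 4.55 ± 0.35 in shZeb1_C (SE, limma adjusted p = 0.000987). Adm and Ndrg1 were high in the same 3 arrays, and no relation between these genes was tested.

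Of 36 further genes known to be induced by hypoxia, 1 rose in the arrays labelled shZeb1_C, and 0 passed in shZeb1_D. Those counts stand beside 0.945% and 0.843% of all probe sets. At an unadjusted limma p under 0.05 the counts were 8 (22.2%) in shZeb1_C, 7 (19.4%) in shZeb1_D and 7 (19.4%) between the hairpins, beside 8.77%, 13.6% and 11.7% of all probe sets. The median log2 fold changes were -0.12 in shZeb1_C and -0.02 in shZeb1_D, where those of all probe sets were 0.00 and 0.04. The one that rose was Stc1, a secreted calcium and phosphate regulator, at 7.87, 8.37 and 9.14 in shZeb1_C, 7.24, 7.81 and 8.05 in shZeb1_D, and 6.26, 5.94 and 6.17 in Scr. Both hairpin groups were above Scr in every array, with log2 fold changes of 2.34 ± 0.32 in shZeb1_C (SE, limma adjusted p = 0.0112) and 1.58 ± 0.32 in shZeb1_D (adjusted p = 0.0719). Every Scr array lay below the median level, so the size of these fold changes is less certain than their direction.

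Between the hairpins 1 of the 36 passed, beside 0.848% of all probe sets. That was Hmox1, which degrades haem. It was at 6.94, 7.12 and 7.48 in shZeb1_D and 8.17, 8.41 and 8.43 in shZeb1_C, with 7.74, 7.59 and 7.58 in Scr. Scr lay between the hairpins without overlap, and the difference, shZeb1_D minus shZeb1_C, was -1.16 ± 0.17 (SE, limma adjusted p = 0.0175), while neither hairpin passed against Scr (adjusted p = 0.128 in shZeb1_C and 0.291 in shZeb1_D).

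The neighbouring pathways gave no calls in limma. None of 17 other glycolysis genes passed in any comparison, Gapdh included (-0.27 in shZeb1_C and -0.09 in shZeb1_D), nor any of 12 genes for pyruvate entry to mitochondria, 19 of the citric acid cycle or 7 of the pentose phosphate pathway. At an unadjusted limma p under 0.05, 2 of the 12 genes for pyruvate entry (16.7%) and 2 of the 19 (10.5%) were counted in shZeb1_C. There 0 of the 17 and 0 of the 7 were counted, beside 8.77% of all probe sets. In the same order the counts in shZeb1_D were 3 (25.0%), 2 (10.5%), 2 (11.8%) and 2 (28.6%), beside 13.6% of all. Between the hairpins they were 2 (16.7%), 2 (10.5%), 1 (5.88%) and 0, beside 11.7%. The other glycolysis genes had medians between -0.11 and 0.05 from the Scr mean over the 6 hairpin arrays, and 9 of the 17 were above the median level.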

How the data were processed

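RNA of 9 C1498 samples was measured on 1-colour arrays. Per the submitters' processing notes, RMA and the Transcriptome Analysis Console were used, without versions. The deposited values were linear RMA signals written without a decimal point. Here each of 199854 cells was returned to the log2 value, a multiple of 0.01 within 1e-06 steps, that fits it. The range was 3.26 to 17.44. The build used by the authors was not given in the sources used here. Coordinates and sequences are those of RefSeq windows on GRCm38.p6.

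The arrays held 22206 probe sets. The platform annotation paired 19572 of them with 1 gene symbol and 0 with several, and the other 2634, unnamed here, were left out. By gene identifier, 19569 matched RefSeq. The test was limma (version 3.58.1, R 4.3.3) over all 19572, fitted to the log2 values of the 9 arrays with 1 mean for each group. Genes were called at a Benjamini-Hochberg adjusted p under 0.05. The steps were tested on simulated data. The alternatives concerned array medians, a second quantile normalization, dim probe sets, the variance prior, array weights, the arrays in the fit and the threshold.

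The members, the gene lists and the tests were chosen with earlier results of these data known. Values in every array are given for Zeb1, for each called gene and, up to 12, for those with the smallest unadjusted p in any comparison. Of each other list up to 4 called genes were named, with a fixed set of HIF genes, Gapdh and Ldhb. Neighbours were the 10 nearest named genes above the median level on each side. Neither Eno1 nor Gpi1 was analysed here.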

Additional observations from a re-analysis of the deposited data

Results flagged for a closer look

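The arrays labelled shZeb1_D and shZeb1_C differed for 2 of the 33 genes by a direct test, beside 0.848% of all named probe sets. Adm differed by -1.98 on the log2 scale (limma adjusted p = 0.0283), and its 3 shZeb1_D arrays were all below its 3 shZeb1_C arrays. Ndrg1 differed by -2.58 (limma adjusted p = 0.0318), also without overlap, as had 15.2% of all probe sets. Both calls were lost without shZeb1_C replicate 10 or without shZeb1_D replicate 13, 14 or 15. Groups of 3 arrays were not tested for single outlying arrays.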

How the results depend on the processing

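No paired analysis was possible because the groups share no replicate numbers. Each of the 33 genes has 1 probe set, so another choice of probe set was not run. The call counts, 1 gene in shZeb1_C against Scr, 1 in shZeb1_D against Scr and 2 between the hairpins, were small and moved with the processing. With array weights they were 2, 2 and 5. With only the 2 compared groups in the fit, they were 0, 0 and 0. In shZeb1_C against Scr the count was 0 with array medians subtracted and 2 at an adjusted p under 0.1. Leaving out 1 array at a time gave 0 to 1 calls in shZeb1_C against Scr, 0 to 2 in shZeb1_D against Scr and 0 to 2 between the hairpins. 2 further settings were chosen after seeing the data. Without the lowest array of both hairpin groups, the counts were 0 in shZeb1_C against Scr and 0 between the hairpins. Without the 4 arrays that stood apart, the count between the hairpins was 0. No called gene changed direction under any of these alternatives. The cause of these moves was not tested, except that fewer arrays enter some of the fits. Signals near or below the median level limit how well the size of a fold change can be measured. Among the called genes this held for Ldhd (all 3 Scr arrays) and Ndrg1 (all 3 shZeb1_D arrays). It also held for Aldoc, Pfkfb4, Egln3 and Car9, and outside the list for Stc1 (every Scr array).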
